A study of Mus musculus with 24 samples.

Results

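Expression of 10 genes of macrophage identity and repair state was followed in mouse kidney through ureter obstruction and its reversal. The genes were chosen by name: Adgre1, Csf1r, Csf1, Lyz2, Mrc1, Trem2, Gpnmb, Lgals3, Mmp12 and Retnla. They are 10 of the 14785 genes in the deposited expression table, and all 10 had a row there. Mmp12 and Retnla were picked because they rose late in these samples, so their values are given as a description with no test. The other 8 were tested. In that table no gene had a mean under 1 FPKM over the 24 libraries. FPKM is the number of fragments relative to transcript length and sequencing depth. Adgre1, Mrc1, Trem2, Gpnmb, Mmp12 and Retnla had a mean under 1 FPKM in sham, so they are in the table through the groups in which they were higher.

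All animals were male C57/BL6 mice, 8 to 9 weeks old at the start, and each group held 4 separate mice, taken from 10 per group by a criterion that the labels do not state. Sham mice had sham surgery. In UUO2 and UUO7 the ureter of one kidney was ligated for 2 or 7 days (unilateral ureter obstruction, UUO). R1W, R2W and R4W mice had 7 days of obstruction, then reimplantation of the ureter, and were examined 1, 2 or 4 weeks later. No genotype other than the strain is named. The labels give the tissue as kidney and also name cortical tissue, and the 8 kidney epithelium markers examined summed to 1957 to 5612 FPKM over the 24 libraries. The title of R4W replicate 2 says 4 weeks and its treatment label 2 weeks. It was grouped by title, and results that its placement changes are given with that change.

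Macrophages survive and multiply on signals through the receptor Csf1r, whose ligands are Csf1 and Il34. In an injured kidney they come both from cells that already live there and from blood monocytes, and over time they pass from clearing debris to states linked with repair or scarring. Adgre1 encodes the surface protein F4/80, Lyz2 lysozyme, and Mrc1 the mannose receptor CD206, a marker of alternatively activated macrophages. Trem2 is a lipid-sensing receptor that signals through Tyrobp. Gpnmb is a glycoprotein of lysosome-rich, lipid-laden macrophages, and Lgals3 encodes galectin-3. Mmp12 is the macrophage elastase, and Retnla is a secreted protein induced by IL-4 signalling. Csf1 and Lgals3 are also made by injured epithelium, and Retnla also in adipose tissue.

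The libraries were not alike in every technical respect. Whole-fragment steps in the low values implied 25200000 to 34800000 fragments in 9 libraries. Depth could not be determined in the other 15, among them all 4 UUO2 libraries. The mitochondrial rRNA mt-Rnr1 lay at 2343 to 2832 FPKM in UUO2 and at 342 to 709 FPKM in the other 20 libraries, so in every UUO2 contrast a library difference and the group cannot be told apart. Sham replicate 2 and R4W replicates 1 and 3 held adipose RNA: Adipoq, the adipocyte hormone adiponectin, was at 12.5, 79.7 and 25.6 FPKM in them and at no more than 0.79 FPKM in any other library. Of the results on the tested genes and the gene lists in UUO7 against sham and R4W against UUO7, those whose call changes without these 3 libraries are marked. In bulk tissue, fewer macrophages and less RNA of a gene per macrophage cannot be told apart.

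The tested genes were higher at day 7 of obstruction than in sham, and 2 of the 8 were called again between UUO7 and 4 weeks of recovery. In UUO7 limma called all 8 higher than in sham (adjusted p under 0.05, log2(FPKM + 1) scale), beside 60.1% of all genes called higher and 17.8% lower (36.5% and 36.5% after rescaling). Csf1r, Csf1, Lyz2 and Lgals3 had a sham mean above 1 FPKM. The other 4, Adgre1, Mrc1, Trem2 and Gpnmb, had to be higher in some other group to be in the table, so their direction against sham is a description and supports nothing. The median difference over all genes was 0.42. After the libraries were rescaled by their median ratio, which brought the all-gene median to 0.01, all 8 were again called higher. Gpnmb, at 0.86 (SE 0.30, limma adjusted p = 0.0134), lost its call with a pseudocount of 10 in place of 1 (0.12, limma adjusted p = 0.308). In R1W, 0 of the 8 differed from UUO7 by limma (14.5% of all genes called), and 0 had an unadjusted p under 0.05. Fitted on these 2 groups alone, Lyz2 was called (0.63, limma adjusted p = 0.0341). The authors' deposited table gave Lyz2 at 0.66 (adjusted p = 2.54e-05), Gpnmb at 0.65 and Csf1 at -0.29 (adjusted p = 0.0243) for R1W against UUO7. In R4W against UUO7, limma called Mrc1 lower, a call lost without single libraries or the 3 with adipose RNA, and Gpnmb higher, with 17.6% of all genes called higher and 30.8% lower (25.1% and 23.2% after rescaling). Gpnmb is in the table through the recovery groups, so its differences from UUO7 are descriptions as well. All 8 were also called higher in R4W than in sham, with the same limit on the 4 genes named, where 54.8% of all genes were called higher and 11.6% lower (28.9% and 31.1% after rescaling).

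**Figure D1:**
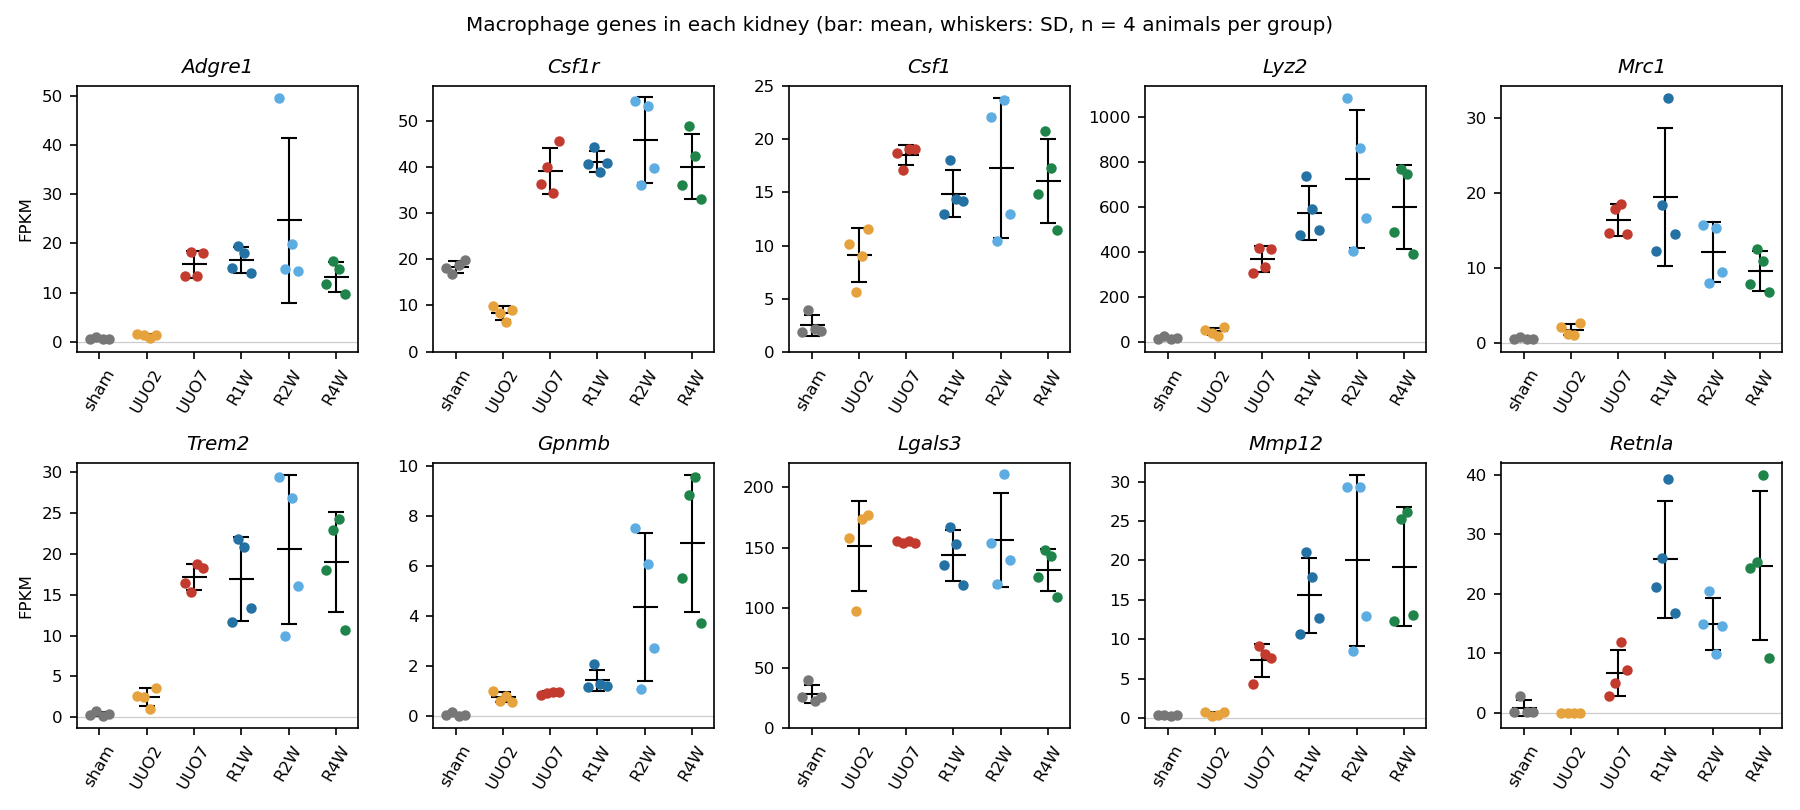
FPKM of each of the 10 genes (vertical axes, linear, one scale per gene) in each kidney, by group. Dots are animals, the short bar is the mean and the whiskers are the SD (n = 4). Adgre1, Csf1, Csf1r and Trem2 are higher in UUO7 than in sham and overlap it in every R group, Csf1r dips in UUO2, and Gpnmb, Mmp12 and Retnla are higher in the R groups than in UUO7.

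The ligand and its receptor moved in opposite directions in early obstruction. Csf1 (chr3:107741048-107760469, minus strand, coordinates as deposited, mm10) was at 1.87, 3.95, 2.14 and 1.96 FPKM in sham replicates 1 to 4 and at 10.15, 5.60, 8.99 and 11.54 FPKM in UUO2. In UUO7 it was at 18.70, 17.14, 19.13 and 19.09 FPKM. The 3 groups did not overlap. Csf1 rose by 1.53 on the log2 scale in UUO2 against sham (SE 0.24, limma adjusted p = 2.08e-05) and by 2.52 in UUO7 against sham (SE 0.24, limma adjusted p = 5.98e-09). Csf1r (chr18:61105572-61132149, plus strand) was at 18.08, 16.73, 18.81 and 19.75 FPKM in sham and at 9.81, 8.42, 6.34 and 8.93 FPKM in UUO2. In UUO7 the 4 values were 36.25, 40.04, 34.24 and 45.52 FPKM. Every UUO2 kidney was below every sham kidney and every UUO7 kidney above. Csf1r fell by 1.06 on the log2 scale in UUO2 (SE 0.14, limma adjusted p = 3.05e-06) and rose by 1.04 in UUO7 (SE 0.14, limma adjusted p = 6.93e-07). After rescaling the rise was 0.57 (limma adjusted p = 0.000301). The difference between UUO7 and UUO2 was itself called, at 2.10 (SE 0.14, limma adjusted p = 2.23e-10).

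Csf1r was the one tested gene called lower in early obstruction. In UUO2 against sham limma called 5 of the 8 genes higher (Csf1, Lyz2, Mrc1, Trem2 and Lgals3) and 1 lower (Csf1r), beside 32.3% of all genes higher and 17% lower (25.3% and 25.5% after rescaling). Mrc1 and Trem2, with sham means under 1 FPKM, had to be higher elsewhere to be in the table, so their direction is a description. Adgre1 and Gpnmb were not called, and after rescaling Gpnmb was (0.76, limma adjusted p = 0.0285). The Mrc1 difference of 0.74 lost its call without UUO2 replicate 1 (0.67, limma adjusted p = 0.0630), without UUO2 replicate 4 (0.60, limma adjusted p = 0.0846) and with a pseudocount of 10 (0.14, limma adjusted p = 0.471). Trem2 lost its call with a pseudocount of 10 (0.26, limma adjusted p = 0.255). Among 16 further macrophage genes 13 were called higher in UUO2 and 1 lower, the efferocytosis receptor Mertk. The genes called higher include Itgam and Fcgr1, whose sham means were under 1 FPKM, with the same limit. In UUO2 the summed injured tubule markers (Havcr1, Lcn2, Vcam1, Krt20 and Sox9) lay at 673 to 1140 FPKM, against 5.42 to 21.2 FPKM in sham. The kidney epithelium markers lay at 1991 to 4043 FPKM, against 5375 to 5612 FPKM. Their part in the Csf1r, Csf1 and Lgals3 values was not tested.

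After reversal, Csf1 and Csf1r stayed near their UUO7 levels. Csf1 was at 12.96, 18.05, 14.35 and 14.16 FPKM in R1W, at 22.13, 10.42, 23.71 and 12.92 FPKM in R2W and at 14.82, 20.80, 17.27 and 11.45 FPKM in R4W. Csf1r was at 40.52, 44.38, 38.90 and 40.79 FPKM in R1W, at 54.27, 36.02, 53.13 and 39.66 FPKM in R2W and at 35.97, 48.84, 42.31 and 32.96 FPKM in R4W. All of these recovery groups overlapped UUO7. In R4W against UUO7 the differences were -0.22 for Csf1 (SE 0.24, limma adjusted p = 0.457) and 0.03 for Csf1r (SE 0.14, limma adjusted p = 0.882).

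Il34, the other ligand of Csf1r, was lower in the recovery groups than in UUO7. Of the 9 genes of the CSF1 axis examined, limma called all 9 higher in UUO7 than in sham (8 after rescaling), beside 60.1% of all genes (36.5% after rescaling). Csf2rb had a sham mean under 1 FPKM and so had to be higher elsewhere to be in the table. The 3 with the largest differences were Spi1 (encoding PU.1, the transcription factor of the myeloid lineage) at 3.13, Il34 at 2.53 and Csf1 at 2.52. Against UUO7, limma called 1 of the 9 in R4W, beside 30.8% of all genes lower and 17.6% higher (23.2% and 25.1% after rescaling). It was Il34, which was 117 ± 12.9 FPKM in UUO7 and 43.1 ± 7.96 FPKM in R4W (SD, n = 4) and fell by 1.43 on the log2 scale (SE 0.29, limma adjusted p = 0.000448). It was already lower in R1W, at -0.86 (limma adjusted p = 0.0475, and 0.0560 after rescaling), and in R2W, at -1.02 (limma adjusted p = 0.0103). Injured tubule markers were lower in the same groups: limma called 4 of 5 lower than in UUO7 in R1W, where 14.5% of all genes were called in either direction, 5 of 5 in R2W, beside 21.5% of all genes lower (14% after rescaling), and 5 of 5 in R4W, where their median log2 difference was -2.19. Without the 3 libraries that held adipose RNA, Cebpa was called lower in R4W as well (-0.34, limma adjusted p = 0.0453). The injured tubule markers summed to 1375 to 1726 FPKM in UUO7 and to 200.2 to 305 FPKM in R4W. Their part in the Il34 values was not tested.

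Adgre1 (chr17:57358686-57483529, plus strand) rose mainly after day 2 of obstruction. It was at 0.56, 0.94, 0.56 and 0.60 FPKM in sham, at 1.52, 1.39, 0.76 and 1.45 FPKM in UUO2, and at 13.40, 18.20, 13.32 and 18.16 FPKM in UUO7. The sham and UUO2 ranges overlapped, and UUO7 lay far above both. The UUO2 difference from sham was 0.45 (SE 0.26, limma adjusted p = 0.167). With a pseudocount of 0.1 in place of 1 the difference was 0.84 (limma adjusted p = 0.0232), and the authors' deposited table gave 0.85 with an adjusted p of 0.00445. The UUO7 difference from sham was 3.32 (SE 0.26, limma adjusted p = 6.52e-10). Adgre1 had a sham mean under 1 FPKM, so its differences from sham are descriptions, with the limit given above. During recovery Adgre1 was at 14.96, 19.57, 18.06 and 13.96 FPKM in R1W, at 49.52, 14.88, 19.95 and 14.36 FPKM in R2W, and at 11.80, 16.35, 14.84 and 9.65 FPKM in R4W. All 3 groups overlapped UUO7, and R2W replicate 1 stood above every other library. In order of group means Adgre1 ran R2W, R1W, UUO7, R4W, UUO2 and sham, and R4W and UUO2 were the one pair of neighbours that did not overlap.

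Lyz2 (chr10:117277331-117282321, minus strand) was the most abundant of the 10 genes during recovery. It was at 11.65, 24.97, 11.36 and 15.86 FPKM in sham, at 52.88, 41.00, 25.08 and 64.75 FPKM in UUO2 and at 304.70, 416.51, 332.86 and 413.49 FPKM in UUO7. In R1W it was at 472.84, 736.77, 589.47 and 495.57 FPKM, in R2W at 1082.53, 401.53, 859.85 and 551.22 FPKM, and in R4W at 485.90, 766.53, 743.48 and 392.01 FPKM. Every R1W kidney was above every UUO7 kidney, while R2W and R4W each had 1 kidney inside the UUO7 range. The UUO7 difference from sham was 4.49 (SE 0.31, limma adjusted p = 1.54e-10). In R2W against UUO7 limma called Lyz2 and Gpnmb higher of the 8 genes, Gpnmb with the limit given above, beside 10.8% of all genes higher and 21.5% lower (15.8% and 14% after rescaling). The Lyz2 difference there was 0.89 (SE 0.31, limma adjusted p = 0.0349). It lost its call when UUO7 replicate 1 or 3 or R2W replicate 1 or 3 was left out, with differences of 0.80, 0.85, 0.66 and 0.77. At R4W the difference from UUO7 was 0.66 (SE 0.31, limma adjusted p = 0.0884), and after rescaling 0.77 with a limma adjusted p of 0.0327. The authors' deposited table gave Lyz2 at 1.01 (adjusted p = 9.44e-05) in R2W and at 0.77 (adjusted p = 0.000136) in R4W, both against UUO7. Lyz2 is also expressed by neutrophils, whose 3 markers examined summed to 10.9 to 17.3 FPKM in UUO7 and 6.82 to 11.7 FPKM in R1W. In R2W they summed to 6.11 to 45.7 FPKM and in R4W to 5.69 to 15.8 FPKM. The part of neutrophils in the Lyz2 values was not tested.

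Mrc1 (chr2:14229392-14332057, plus strand) peaked around the reversal and was lower at 4 weeks. Its values were 0.47, 0.83, 0.48 and 0.56 FPKM in sham, 2.10, 1.18, 1.01 and 2.58 FPKM in UUO2 and 14.69, 17.91, 18.52 and 14.55 FPKM in UUO7. In R1W it was at 12.21, 18.45, 32.72 and 14.58 FPKM, in R2W at 15.79, 8.00, 15.29 and 9.45 FPKM, and in R4W at 7.88, 12.57, 10.98 and 6.76 FPKM. The highest R4W kidney was below the lowest UUO7 kidney, while R4W and R1W overlapped. Mrc1 rose by 3.46 on the log2 scale in UUO7 against sham (SE 0.26, limma adjusted p = 3.55e-10). Its sham mean was under 1 FPKM, so this rise is a description, with the same limit as for Adgre1. In R4W Mrc1 fell by 0.75 against UUO7 (SE 0.26, limma adjusted p = 0.0207) and by 0.90 against R1W (SE 0.26, limma adjusted p = 0.0221). Against R1W, limma called 2 of the 8 genes, Gpnmb higher and Mrc1 lower, beside 5.06% and 14.1% of all genes (8.67% and 8.6% after rescaling).

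The call on Mrc1 was not firm. Without UUO7 replicate 3, R4W replicate 1 or R4W replicate 4, the R4W difference from UUO7 was -0.69, -0.68 and -0.62, with limma adjusted p-values of 0.0568, 0.0571 and 0.0775. Without the 3 libraries that held adipose RNA it was -0.76 (limma adjusted p = 0.0788). Against R1W the call was lost without R1W replicate 3, R4W replicate 1 or R4W replicate 4, at -0.63, -0.83 and -0.76. That call was also lost without the 3 libraries that held adipose RNA (-0.90, limma adjusted p = 0.108) and in a fit of these 2 groups alone (limma adjusted p = 0.0925). In the authors' deposited table the Mrc1 differences were -0.37 in R4W against UUO7 (adjusted p = 0.101) and -0.57 against R1W (adjusted p = 0.0803).

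Gpnmb (chr6:49036546-49070929, plus strand) had its highest levels in R2W and R4W. It was at 0.05, 0.16, 0.02 and 0.06 FPKM in sham and at 1.01, 0.63, 0.82 and 0.57 FPKM in UUO2. In UUO7 it was at 0.86, 0.94, 0.99 and 0.99 FPKM, and in R1W at 1.18, 2.08, 1.29 and 1.21 FPKM. Gpnmb then reached 7.53, 1.11, 6.08 and 2.72 FPKM in R2W and 5.51, 8.83, 9.55 and 3.73 FPKM in R4W. Its means in UUO2 and UUO7 were under 1 FPKM as well, so it is in the table through the recovery groups and had to be higher there. Where limma called its differences from UUO7, the call is therefore a description, and no p-value is given for them here. Each R4W kidney was above every UUO7 and every R1W kidney, and the R2W kidneys spread from just under the R1W range to inside the R4W range. The log2 difference from UUO7 was 1.26 in R2W and 1.95 in R4W (SE 0.30 for both), and the latter was 1.81 without the 3 libraries that held adipose RNA. R1W had a mean above 1 FPKM. Against R1W, Gpnmb rose in R4W by 1.64 (SE 0.30, limma adjusted p = 0.00394), and by 1.50 without those 3 libraries (limma adjusted p = 0.0485).

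At its low levels the size of the Gpnmb change depended on the pseudocount. In UUO2 against sham it was 0.71 (SE 0.30, limma adjusted p = 0.0574), and with a pseudocount of 0.1 it was 2.35 (limma adjusted p = 9.77e-05), with every UUO2 kidney above every sham kidney. Both are descriptions, since the sham mean of Gpnmb was under 1 FPKM. The authors' deposited table gave 3.77 for that contrast and 2.93 for R4W against UUO7. From UUO2 to UUO7, while Adgre1 rose by 2.88 (SE 0.26, limma adjusted p = 1.14e-08), the Gpnmb difference was 0.15 (SE 0.30, limma adjusted p = 0.671) and changed sign to -0.01 after rescaling. Limma called 6 of the 8 genes higher in that contrast, all but Gpnmb and Lgals3, beside 52% of all genes higher and 14.7% lower (30% and 31.9% after rescaling).

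Markers of the urothelium, the lining of the ureter and renal pelvis, were also higher in R4W. All 5 examined (Upk1a, Upk1b, Upk2, Upk3a and Krt5) had a row. Against UUO7, limma called 1 of them higher in R2W, beside 10.8% of all genes, and 4 in R4W, beside 17.6% (25.1% after rescaling). Their sum lay at 16.8 to 31.6 FPKM in UUO7, 11.5 to 52.3 FPKM in R1W, 23.6 to 73.9 FPKM in R2W and 42.6 to 141 FPKM in R4W. Within R2W the markers had the same order as Gpnmb, at 73.9, 47.3, 40.5 and 23.6 FPKM in replicates 1, 3, 4 and 2, where Gpnmb was at 7.53, 6.08, 2.72 and 1.11 FPKM. Csf1r, Lyz2 and Trem2 had this order in R2W as well. In R1W the markers and Gpnmb were highest in replicate 2, at 52.3 and 2.08 FPKM, a kidney that was highest for 8 of the 10 genes. R1W replicate 1 had the next highest sum of markers, at 28.5 FPKM, and the lowest Gpnmb, at 1.18 FPKM. Within R4W the order differed: the markers were at 141, 42.6, 102 and 76.1 FPKM in replicates 1 to 4, where Gpnmb was at 5.51, 8.83, 9.55 and 3.73 FPKM. Their part in the Gpnmb values was not tested.

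The promoters of Mrc1 and Gpnmb are shown because these genes differed in opposite directions between R1W and R4W. Each window is the 250 bases before the RefSeq start (GRCm38.p6, plus strand for both), at chr2:14229164-14229413 for Mrc1 and chr6:49036268-49036517 for Gpnmb. Capitals mark matches on either strand to GAGGAA (the core of PU.1 sites), CACGTG (the E-box of the MiT/TFE factors), TGANTCA (AP-1), TTGCNNAA (C/EBP), or to the STAT6 palindrome.
Mrc1: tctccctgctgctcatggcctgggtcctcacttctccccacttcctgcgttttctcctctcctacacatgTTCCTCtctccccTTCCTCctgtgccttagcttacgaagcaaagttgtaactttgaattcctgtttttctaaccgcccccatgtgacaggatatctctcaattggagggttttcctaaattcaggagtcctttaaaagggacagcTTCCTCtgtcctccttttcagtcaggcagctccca
Gpnmb: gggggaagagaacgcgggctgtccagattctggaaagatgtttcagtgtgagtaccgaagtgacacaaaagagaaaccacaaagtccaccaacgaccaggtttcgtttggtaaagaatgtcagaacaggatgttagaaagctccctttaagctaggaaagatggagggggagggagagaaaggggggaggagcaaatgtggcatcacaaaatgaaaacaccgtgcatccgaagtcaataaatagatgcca
Mrc1 held 3 matches to GAGGAA, with first bases 180, 167 and 35 bases before the start, all on the strand opposite to the gene (TTCCTC), and Gpnmb held no match to any of the 5 motifs. Of all 32851 promoter windows of this length, 23.3% held GAGGAA, 6.02% CACGTG, 6.75% TGANTCA, 9.56% TTGCNNAA and 5.85% the STAT6 palindrome. A match to such short letters is a description and no site. Of the 10 genes 8 had a promoter in the RefSeq table, with 9 windows in all.

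Trem2 (chr17:48346401-48354147, plus strand) reached its level in UUO7 and did not detectably change afterwards. It was at 0.25, 0.69, 0.12 and 0.42 FPKM in sham, 2.64, 2.48, 0.99 and 3.62 FPKM in UUO2 and 16.44, 15.33, 18.76 and 18.22 FPKM in UUO7. Recovery values were 11.69, 21.86, 20.91 and 13.43 FPKM in R1W, 29.41, 9.99, 26.91 and 16.03 FPKM in R2W and 18.08, 22.98, 24.30 and 10.65 FPKM in R4W. The 3 recovery groups each spread to both sides of the UUO7 range. Trem2 rose by 1.28 on the log2 scale in UUO2 against sham (SE 0.30, limma adjusted p = 0.00147) and by 3.74 in UUO7 against sham (SE 0.30, limma adjusted p = 9.32e-10). Trem2 also had a sham mean under 1 FPKM, so both differences from sham are descriptions. Its R4W difference from UUO7 was 0.08 (SE 0.30, limma adjusted p = 0.847). Between the same groups, with Gpnmb at the higher level in R4W, Trem2 was at 17.2 ± 1.59 and 19.0 ± 6.18 FPKM (SD, n = 4), and the difference between the changes of the 2 genes was not tested.

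Other genes of the lipid-laden state did not move as one group. Of the 13 examined, Trem2 and its adaptor Tyrobp among them, limma called 11 higher and 2 lower in UUO7 against sham (8 and 2 after rescaling), beside 60.1% and 17.8% of all genes (36.5% and 36.5% after rescaling). Trem2 and Syk, with sham means under 1 FPKM, had to be higher elsewhere to be in the table. The 3 with the largest differences were Spp1 (osteopontin) at 5.12, Tyrobp at 4.11 and Trem2 at 3.74. By 4 weeks of recovery limma called 4 of the 13 higher and 3 lower than in UUO7, beside 17.6% and 30.8% of all genes. Spp1, which injured tubules also make, fell by 2.81, from 16129 ± 1205 to 2325 ± 392 FPKM (SD, n = 4). Lpl (lipoprotein lipase) rose by 1.26, from 64.4 ± 8.54 to 156 ± 20.3 FPKM, and the fatty acid carrier Fabp5 by 0.88, from 15.4 ± 0.913 to 30.7 ± 11.2 FPKM. Lpl was at 346 ± 45.0 FPKM in sham, above all later groups named here. Both genes are also expressed in adipose tissue, whose 6 markers with a row summed to 1705 and 418 FPKM in R4W replicates 1 and 3. In R4W replicates 2 and 4 they summed to 62.6 and 69.9 FPKM, nearly all of it Fabp4. Without the 3 libraries that held adipose RNA, Lpl was still called (1.18, limma adjusted p = 0.00297) and Fabp5 was not (0.54, limma adjusted p = 0.110).

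Lgals3 (chr14:47367751-47386160, plus strand) was near its UUO7 level by UUO2. It was at 25.48, 39.66, 22.46 and 25.72 FPKM in sham and already at 157.62, 97.14, 174.02 and 176.75 FPKM in UUO2. In UUO7 it was at 155.65, 153.73, 155.15 and 153.92 FPKM. The UUO2 values stood on both sides of the UUO7 values, and both groups lay above sham. Lgals3 rose by 2.37 on the log2 scale in UUO2 against sham (SE 0.19, limma adjusted p = 6.04e-09). The difference between UUO7 and UUO2 was 0.07 (SE 0.19, limma adjusted p = 0.764) and -0.28 after rescaling. Recovery values were 135.88, 167.05, 153.11 and 118.54 FPKM in R1W, 153.51, 119.98, 211.09 and 140.03 FPKM in R2W and 125.68, 147.69, 142.56 and 109.13 FPKM in R4W. The 4 R4W values were all below the 4 UUO7 values, but the difference of -0.24 was not called (SE 0.19, limma adjusted p = 0.297).

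**Figure D2:**
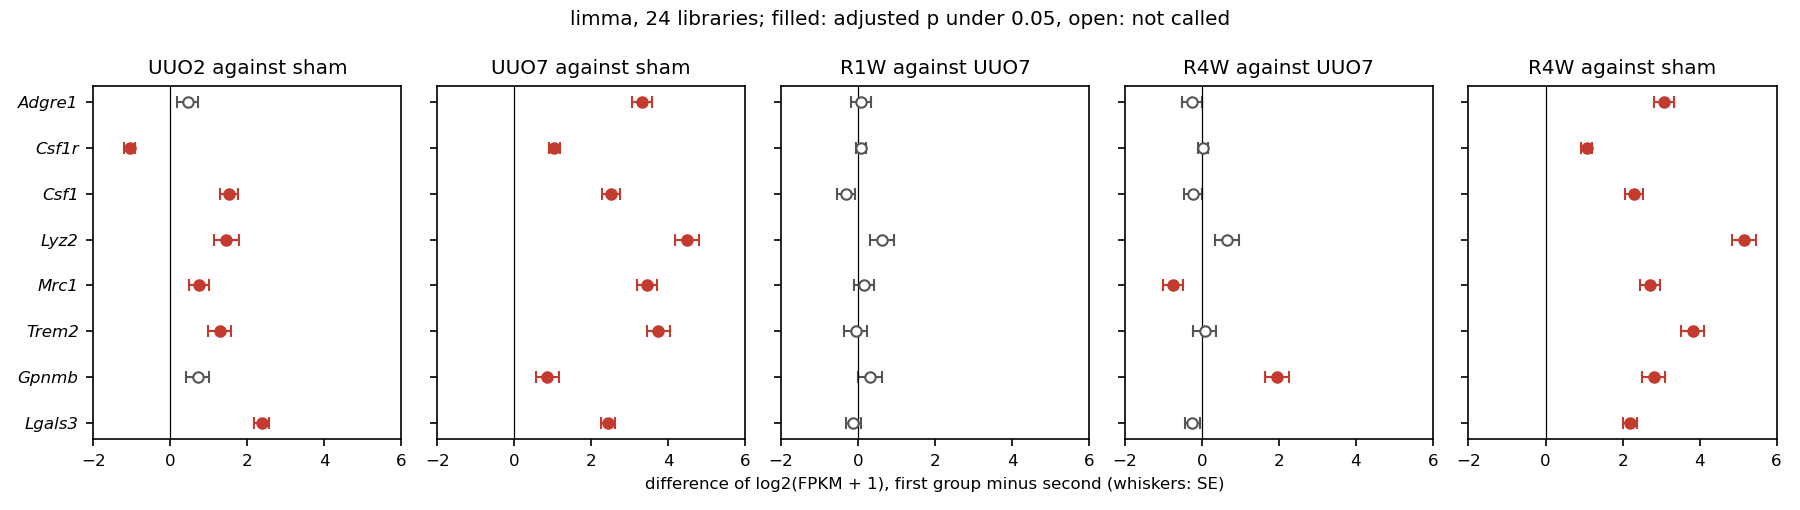
Differences of log2(FPKM + 1) between 2 groups (horizontal axis, first group minus second) for the 8 tested genes, from limma over 24 libraries. Points are estimates and whiskers are the SE. Filled points passed an adjusted p of 0.05: all 8 in UUO7 and R4W against sham, 0 in R1W against UUO7, and Gpnmb (as a description) and Mrc1 in R4W against UUO7.

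Mmp12 and Retnla were chosen for their late rise, and their values describe its course. Mmp12 (chr9:7344381-7369499, plus strand) was at 0.39, 0.44, 0.27 and 0.42 FPKM in sham, 0.82, 0.29, 0.41 and 0.76 FPKM in UUO2 and 4.35, 9.16, 8.20 and 7.60 FPKM in UUO7. It was at 10.70, 21.05, 17.96 and 12.68 FPKM in R1W, 29.29, 8.57, 29.31 and 12.99 FPKM in R2W and 12.28, 25.31, 26.08 and 13.03 FPKM in R4W. Sham and UUO2 overlapped, UUO7 was above both, and every R1W and R4W kidney was above every UUO7 kidney. One R2W kidney, replicate 2, lay inside the UUO7 range.

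Retnla (chr16:48842552-48844461, plus strand) was at 0.07, 2.76, 0.06 and 0.07 FPKM in sham and was listed at 0 in all 4 UUO2 libraries. It was at 2.75, 5.00, 11.84 and 7.18 FPKM in UUO7, 21.07, 25.95, 39.27 and 16.69 FPKM in R1W, 14.88, 20.43, 9.81 and 14.58 FPKM in R2W and 24.34, 25.25, 40.03 and 9.21 FPKM in R4W. Every R1W kidney was above every UUO7 kidney, and R2W and R4W overlapped both. Retnla was thus highest by group mean in R1W, Mmp12 in R2W and Gpnmb in R4W, although each overlapped the next group in its order.

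Adipose markers and Retnla were high together in 1 sham and 1 UUO7 kidney and were not ordered alike in R4W. In sham, replicate 2 was the one kidney with Retnla above 0.07 FPKM, and its adipose markers summed to 299 FPKM against 40.4 to 48.6 FPKM in the other sham kidneys. In UUO7, replicate 3 had the highest Retnla, at 11.84 FPKM against 2.75 to 7.18 FPKM in the other UUO7 kidneys. The adipose marker Cfd was at 12.07 FPKM there and at 0 to 0.09 FPKM in the others, and Adipoq at 0.79 and 0 FPKM. In R4W, replicate 1 had 1705 FPKM of adipose markers and 24.34 FPKM of Retnla, while replicate 2 had 62.6 FPKM of adipose markers and 25.25 FPKM of Retnla. Replicate 3 had 418 FPKM and 40.03 FPKM, and replicate 4 had 69.9 FPKM and 9.21 FPKM. Of these sums Fabp4 alone made up 60.97 FPKM in replicate 2 and 69.38 FPKM in replicate 4. Outside sham replicate 2 and R4W replicates 1 and 3 the sum was mostly Fabp4 in every library, so it says little of adipose RNA there. In R1W Adipoq was listed at 0 in all 4 libraries, and Retnla was at 16.69 to 39.27 FPKM. With sham replicate 2 and R4W replicates 1 and 3 left out, Retnla had a mean of 0.067 FPKM over 3 sham kidneys and 17.2 FPKM over 2 R4W kidneys. The part of adipose RNA in the Retnla values of sham, UUO7 and R4W was not tested.

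**Figure D3:**
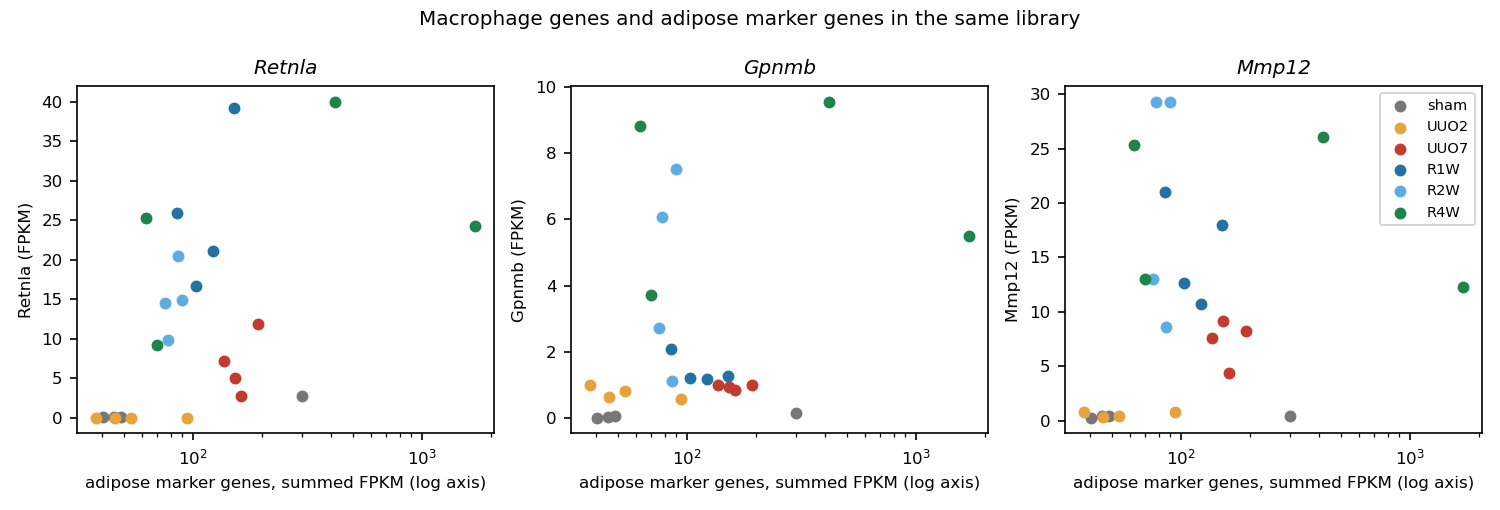
FPKM of Retnla, Gpnmb and Mmp12 (vertical axes, linear) against the summed FPKM of 6 adipose marker genes in the same library (horizontal axis, log scale), with dots for the 24 libraries coloured by group. R4W replicate 1, at 1705 FPKM of adipose markers, lies to the right with Retnla at 24.34 FPKM, close to R4W replicate 2, at 62.6 FPKM of adipose markers and 25.25 FPKM of Retnla.

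The promoters of these late genes are shown for comparison with those of Mrc1 and Gpnmb, with the same motifs in capitals. The windows are the 250 bases before the first RefSeq start of Mmp12 (chr9:7344147-7344396, plus strand) and before that of Retnla (chr16:48842359-48842608, plus strand), both GRCm38.p6.
Mmp12: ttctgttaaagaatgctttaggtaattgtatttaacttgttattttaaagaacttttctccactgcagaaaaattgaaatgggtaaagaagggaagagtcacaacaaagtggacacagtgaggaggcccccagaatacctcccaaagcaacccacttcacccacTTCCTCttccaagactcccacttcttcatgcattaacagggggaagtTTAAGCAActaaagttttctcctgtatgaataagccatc
Retnla: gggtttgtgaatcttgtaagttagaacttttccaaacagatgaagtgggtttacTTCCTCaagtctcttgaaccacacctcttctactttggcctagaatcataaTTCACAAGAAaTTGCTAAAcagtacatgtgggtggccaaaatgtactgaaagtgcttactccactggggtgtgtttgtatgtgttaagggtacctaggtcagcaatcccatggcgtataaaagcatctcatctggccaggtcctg
Mmp12 held 1 match to GAGGAA, 86 bases before the start, and 1 to TTGCNNAA, 39 bases before it. Retnla held 1 match to GAGGAA (196 bases before), 1 to the STAT6 palindrome (145 bases before) and 1 to TTGCNNAA (134 bases before). Among the 9 windows, the STAT6 palindrome was also found in Lgals3, with 2 matches. No E-box CACGTG was found in any of the 9, a count that says only that these letters are not in these windows.

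The mix of genes was then compared within each library, as the log2(FPKM + 1) of each gene minus that of Adgre1. On this scale limma called 2 of 7 genes in R4W against UUO7, Gpnmb and Lyz2, both higher, beside 5.59% of all other genes higher and 1.87% lower. Gpnmb was at -3.09 ± 0.23 in UUO7 and -0.89 ± 0.25 in R4W (SD, n = 4), a difference of 2.21 that is given as a description, since Gpnmb is in the table through the recovery groups. As a linear ratio there was 0.0612 ± 0.0103 FPKM of Gpnmb per FPKM of Adgre1 in UUO7 and 0.509 ± 0.109 in R4W (SD, n = 4). Lyz2 was 23.3 ± 1.10 FPKM per FPKM of Adgre1 in UUO7 and 44.7 ± 4.58 in R4W, and its log2 difference was 0.91 (SE 0.26, limma adjusted p = 0.0240). The Lyz2 call was lost when any one of UUO7 replicates 1, 2 and 4 or R4W replicates 1 and 3 was left out, with differences of 0.85 to 0.95 and limma adjusted p-values of 0.0537 to 0.0713. It was lost as well with R4W replicate 2 placed in R2W (0.88, limma adjusted p = 0.05004) and without the 3 libraries that held adipose RNA (0.88, limma adjusted p = 0.212).

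The other 5 genes were not called relative to Adgre1. Mrc1 went from 1.07 ± 0.247 to 0.719 ± 0.0443 FPKM per FPKM of Adgre1 (SD, n = 4), a log2 difference of -0.50 (SE 0.26, limma adjusted p = 0.266). The log2 differences were 0.33 for Trem2 (SE 0.25), 0.28 for Csf1r (SE 0.25), 0.03 for Csf1 (SE 0.26) and 0.01 for Lgals3 (SE 0.30). As a description with no test, Mmp12 went from 0.466 ± 0.124 to 1.42 ± 0.305 and Retnla from 0.441 ± 0.309 to 1.81 ± 0.743 FPKM per FPKM of Adgre1. Sham and UUO2 are not compared on this scale because Adgre1 was near or under 1 FPKM in them.

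**Figure D4:**
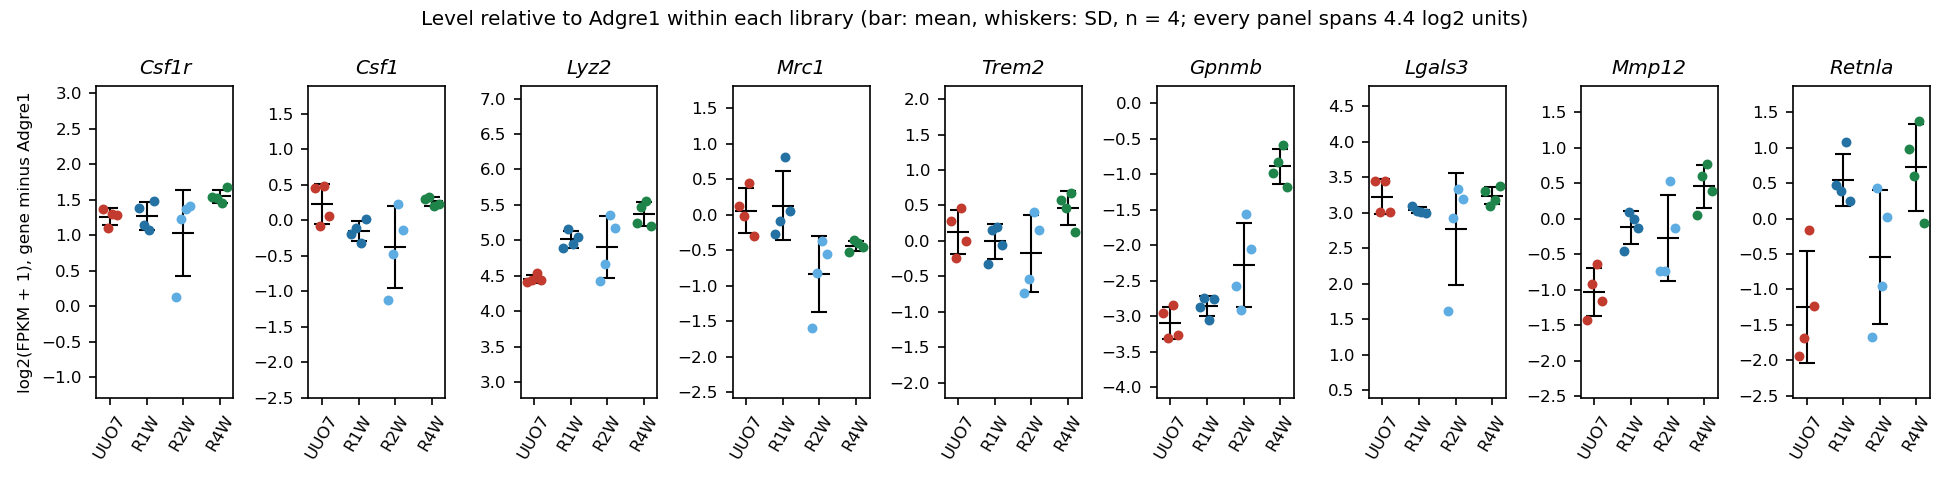
Log2(FPKM + 1) of 9 genes minus that of Adgre1 in the same library (vertical axes) in UUO7, R1W, R2W and R4W. Dots are libraries, bars the mean and whiskers the SD (n = 4). Gpnmb goes from -3.09 in UUO7 to -0.89 in R4W with no overlap, and the lowest R2W dot of Csf1r, Csf1, Lyz2, Mrc1, Trem2, Lgals3, Mmp12 and Retnla is replicate 1, whose Adgre1 was at 49.52 FPKM.

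The R2W kidneys differed widely from each other, and several genes differed together. In R2W, replicates 1 and 3 were the highest 2 kidneys for 10 and 9 of the 10 genes, and replicate 2 was the lowest for 8. The ratio of the highest to the lowest R2W kidney was 6.78 for Gpnmb, 3.45 for Adgre1, 3.42 for Mmp12, 2.94 for Trem2 and 1.51 for Csf1r. The same kidneys differed in other markers. The injured tubule markers summed to 584 and 780 FPKM in R2W replicates 1 and 3 and to 258 and 338 FPKM in replicates 2 and 4. The kidney epithelium markers ran the other way, at 3272 and 3381 FPKM against 4419 and 4171 FPKM. The urothelial markers were at 73.9 and 47.3 FPKM in replicates 1 and 3 and at 23.6 and 40.5 FPKM in replicates 2 and 4. The part of these tissues in the R2W values was not tested. Retnla departed from the order of the other genes in R2W, where replicate 2 was its highest kidney. In R4W, replicates 2 and 3 were the highest 2 kidneys for all 10 genes and replicate 4 the lowest for 9. There the injured tubule markers summed to 305 and 283 FPKM in replicates 2 and 3 and to 257 and 200.2 FPKM in replicates 1 and 4. The kidney epithelium markers were at 4050 and 4212 FPKM against 4654 and 4979 FPKM, and the urothelial markers at 42.6 and 102 FPKM against 141 and 76.1 FPKM. The part of these tissues in the R4W values was not tested.

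R2W replicate 1 had a high level of Adgre1 relative to the other genes. Its Csf1r was 1.10 FPKM per FPKM of Adgre1, against a highest of 2.76 and a median of 2.54 in R2W. Adgre1 was at 49.52 FPKM there and at 19.95 FPKM in replicate 3, while Csf1r was at 54.27 and 53.13 FPKM. Lyz2, at 1082.53 and 859.85 FPKM, and Trem2, at 29.41 and 26.91 FPKM, were also closer in the 2 kidneys than Adgre1.

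**Figure D5:**
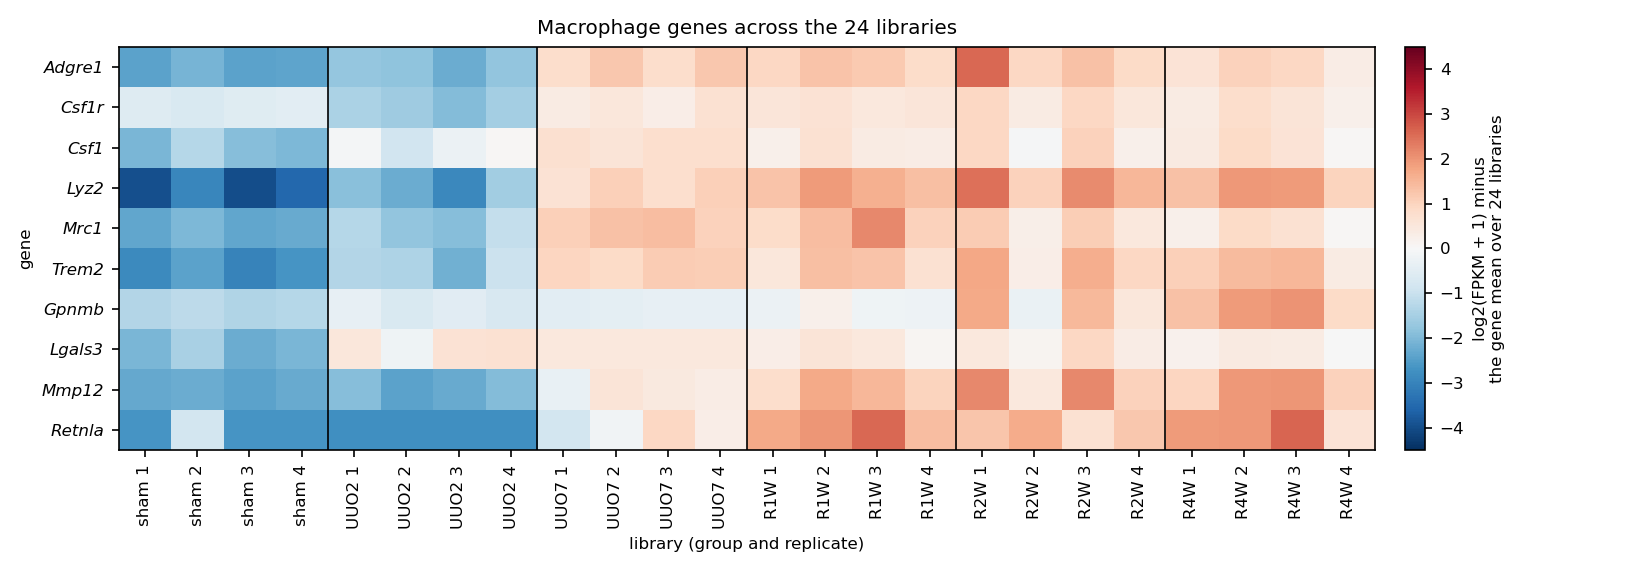
Log2(FPKM + 1) of the 10 genes minus each gene's mean over the 24 libraries (colour), with one column per library grouped by condition. Sham and UUO2 libraries are low for most genes, R2W replicates 1 and 3 are darker than replicates 2 and 4 for most genes but not Retnla, and Gpnmb turns high in R2W and R4W, later than Adgre1.

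Macrophage genes outside the 10 placed these courses in context. Of 16 further macrophage genes, limma called 15 higher and 1 lower in UUO7 against sham, beside 60.1% and 17.8% of all genes. The count includes Itgam, Itgax, Fcgr1 and Ms4a7, whose sham means were under 1 FPKM and which had to be higher elsewhere to be in the table. The largest differences were those of the complement gene C1qa (4.84), the protease Ctss (4.78) and C1qc (4.60). The one lower gene was Mertk, at 10.9 ± 0.438 FPKM in sham and 7.83 ± 0.816 FPKM in UUO7 (SD, n = 4). Between UUO7 and R4W, 1 was called higher and 2 lower, beside 17.6% and 30.8% of all genes. The endotoxin co-receptor Cd14 fell by 1.46 (SE 0.31, limma adjusted p = 0.000635), from 77.7 ± 7.31 to 27.9 ± 5.44 FPKM. The high-affinity Fc receptor Fcgr1 fell by 0.83 (SE 0.18, limma adjusted p = 0.00092). Mertk rose by 0.89 (SE 0.12, limma adjusted p = 1.91e-05), to 15.4 ± 1.14 FPKM. The median difference over the 16 was -0.46 in R4W against UUO7, against -0.08 over all genes.

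Alternative activation genes other than Retnla were called higher in obstruction, and 3 of them lower at 4 weeks. Besides Retnla, 6 of the listed genes had a row. All 6 were called higher in UUO7 against sham, beside 60.1% of all genes (36.5% after rescaling), led by the lectin Mgl2 at 3.99, Mrc1 at 3.46 and the lectin Clec10a at 3.05. Mrc1 and Clec10a had sham means under 1 FPKM and had to be higher elsewhere to be in the table, so their direction is a description. In R4W against UUO7, 0 were called higher and 3 lower, beside 17.6% and 30.8% of all genes: Mrc1, the transglutaminase Tgm2 by 0.73 and the IL-4 receptor chain Il4ra by 0.64. Without the 3 libraries that held adipose RNA, 2 of them were called, Tgm2 and Il4ra. Il4ra was at 20.6 ± 2.03 FPKM in UUO7 and 12.9 ± 2.09 FPKM in R4W (SD, n = 4), while Retnla had group means of 6.69 ± 3.88 and 24.7 ± 12.6 FPKM.

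Of 7 monocyte genes listed, 6 had a row. Of these, Ccr2, Cx3cr1, Ly6c2 and Vcan had sham means under 1 FPKM and are in the table through groups in which they were higher, so their direction against sham is a description. All 6 were called higher in UUO7 than in sham (60.1% of all genes, and 36.5% after rescaling), led by the chemokine receptors Ccr2 at 3.55 and Cx3cr1 at 3.18, and by Plac8 at 2.58. From UUO7 to R4W the matrix proteoglycan Vcan fell by 1.38 and Ccr2 by 0.62, a count of 2 of 6 beside 30.8% of all genes. The other 4 were not called, and after rescaling Ly6c2 was called higher (0.40, limma adjusted p = 0.0425). Ccr2 was at 18.9 ± 2.48 FPKM in UUO7 and 12.1 ± 3.09 FPKM in R4W (SD, n = 4). Of 6 resident macrophage genes 4 had a row. In UUO7 against sham Cx3cr1, Siglec1 (1.14) and Cd81 (0.43) were called higher, Cd81 not after rescaling (-0.05), and Cx3cr1 and Siglec1 with sham means under 1 FPKM and so with the same limit. In R4W against UUO7 limma called 0 of the 4. Lymphocyte markers rose over the same time: 5 of the 8 listed had a row, all 5 were called higher in R4W than in UUO7 (17.6% of all genes), and their sum lay at 9.07 to 16.2 FPKM in UUO7 and 22.0 to 66.8 FPKM in R4W. Without the 3 libraries that held adipose RNA 4 of the 5 were called, all but Cd4 (0.70, limma adjusted p = 0.0519).

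The genes whose levels were most like each of 6 members over the 24 libraries were found by Pearson's r on log2(FPKM + 1), as a description. The 24 libraries fall into 6 groups, and the parts of r from between and within groups were not separated. Adgre1 was most like C3ar1 (0.993), Clec4a1, Fcrls, Pirb and Pik3r5 (0.990 for each), of which C3ar1 is the receptor for complement C3a. Trem2 was most like its own adaptor Tyrobp (0.991), then P2ry6, C1qb and Nckap1l (0.989 for each) and Pld4 (0.988). Csf1 was most like Arl4c (0.990), Tmem43 (0.982), Fam111a (0.980), B4galnt1 and Jak3 (0.977 for both). Mmp12 was closest to genes of T cells and other leukocytes: Cd2 (0.989), Cxcr6 and Cd3g (0.987 for both), Clec7a (0.986) and Itga4 (0.985). Retnla was closest to Ly6c1 (0.966), Gdf10 (0.957), Matn2 (0.955), Mfap5 and Ccl8 (0.954 for both). Gpnmb had the lowest likeness of the 6, with Clec4d (0.935), a C-type lectin receptor of myeloid cells, Slurp1 (0.921), a secreted protein of squamous epithelium, Gm20219 (0.903), Gabrp (0.901), a GABA receptor subunit of epithelial tissues, and 2010016I18Rik (0.895).

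Among the 10 genes themselves, r over the 24 libraries ran from 0.293 for Csf1r and Lgals3 to 0.987 for Lyz2 and Trem2. Adgre1 and Lyz2 had r = 0.974, Adgre1 and Trem2 0.965 and Adgre1 and Mrc1 0.953. Mrc1 and Gpnmb were among the least alike, with r = 0.569.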

How the data were processed

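PolyA RNA of 24 kidneys was sequenced, with 4 mice in each of 6 groups taken from the titles. The authors deposited one value for each of 14785 genes in every library and, for pairs of groups, log2 fold changes and adjusted p-values. The deposited values are taken here to be FPKM, inferred from the values, since the unit is not given per the file headers; the columns sum to 717415 to 830179. The submitters' processing notes name FastQC, Bowtie2, RSEM, DESeq2 and the build mm10, without roles or versions. Regressing the deposited log2 fold changes on those of the group means gave slopes of 0.958 to 1.00, from which their direction was read. The test behind the deposited p-values is not given in the sources used here. The smallest gene mean was 1 FPKM, so genes of lower mean are not analysed here.

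The test was that of limma 3.58.1 (R 4.3.3, with lmFit and a trended eBayes) on log2(FPKM + 1) over all 24 libraries and 14785 genes, with Benjamini-Hochberg adjustment, and called at an adjusted p under 0.05. This scale understates the change of low genes. Each SD is over animals, and each SE is from limma. As a check, all 24 libraries were simulated from the sham means with normal noise of a pooled SD per gene. In UUO7, 200 of the 14785 genes were changed. In UUO7 against sham, 89 of 100 genes changed by 1 on the log2 scale and 97 of 100 changed by 2 were called, and 5 unchanged genes. The real contrast had far more genes called (60.1% higher and 17.8% lower), a setting that was not simulated. Rescaling divided each library by the median, over genes, of its ratio to the geometric mean. The results were recomputed with a pseudocount of 0.1 or 10, with genes of mean 10 FPKM or more, in fits of 2 groups only or without UUO2, with a replicate block, with R4W replicate 2 placed elsewhere, with stricter calls and without each replicate. Leaving out the 3 libraries with adipose RNA was chosen after seeing the data. Depth came from whole-fragment steps in 2340 genes with 1 transcript. The members and the gene lists were chosen with earlier results of these data known. From the lists the text names the 3 genes of largest log2 difference among the calls between UUO7 and sham and between R4W and UUO7, and for 6 members the 5 genes of highest Pearson r. Coordinates are as deposited, and 7 of the 10 members have the same ones in the GRCm38 annotation. All value columns matched a sample. Python 3.11.15, numpy 2.4.6 and pandas 2.3.3 were used.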

Additional observations from a re-analysis of the deposited data

Results flagged for a closer look

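Of 60 groups of 4 values checked (10 genes in 6 groups), 5 had 1 kidney further from the other 3 than Dixon's 95% limit, where chance gives about 3.0. Of these, 3 were in sham replicate 2, the sham kidney with adipose RNA: Adgre1 at 0.94 FPKM against 0.56 to 0.60 FPKM in the others, Csf1 at 3.95 FPKM against 1.87 to 2.14 FPKM, and Retnla at 2.76 FPKM against 0.06 to 0.07 FPKM. That kidney also had more urothelial markers, at 34.2 FPKM against 1.45 to 2.31 FPKM, and injured tubule markers, at 21.2 FPKM against 5.42 to 8.53 FPKM, and the part of these tissues in the 3 values was not tested. Adgre1 in R2W replicate 1 was at 49.52 FPKM, and the other R2W kidneys lay at 14.36 to 19.95 FPKM. Gpnmb in R1W replicate 2 was at 2.08 FPKM, and the other R1W kidneys lay at 1.18 to 1.29 FPKM. Urothelial markers were at 52.3 FPKM there and at 11.5 to 28.5 FPKM in the others.

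Csf1r stood below sham in all 4 UUO2 kidneys and above sham in all 4 UUO7 kidneys. The difference between UUO7 and UUO2 was 2.10 on the log2 scale by limma.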

How the results depend on the processing

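Counts of called genes among the 8 tested in UUO2 against sham (6), UUO7 against sham (8), UUO7 against UUO2 (6) and R4W against sham (8) stayed within 1.5 times under every alternative run. The counts were 0 in R1W against UUO7 and 2 each in R2W against UUO7, R4W against UUO7, R4W against R1W and, of 7, relative to Adgre1. Gpnmb is in each of these 4, and against UUO7 its direction is favoured by the table's limit on low means. In the order R2W against UUO7, R4W against UUO7, R4W against R1W and relative to Adgre1, a minimum mean of 10 FPKM, which removes Gpnmb and Mrc1 from the test, gave 1, 0, 0 and 1. An adjusted p under 0.01 and an absolute log2 difference of at least 1 each gave 1 in all 4 of these. Fits on the 2 groups alone gave 1 in R1W against UUO7 (Lyz2) and 1 in R4W against R1W. These fits and the rescaling each gave 3 in R4W against UUO7, where Lyz2 was called too (0.66, limma adjusted p = 0.0368, and 0.77, limma adjusted p = 0.0327). Placing R4W replicate 2 in R2W gave 1 relative to Adgre1. Without the 3 libraries that held adipose RNA the count was 1 in R4W against UUO7, 1 in R4W against R1W and 1 relative to Adgre1. Leaving out each replicate in turn gave 1 to 2 in each of these 4 contrasts. Without R4W replicate 4, Lyz2 was called in R4W against UUO7 (0.84, limma adjusted p = 0.0465) and Mrc1 was not. Apart from the removal of Gpnmb and Mrc1 by the minimum mean, the cause of these shifts was not tested.

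The replicate block changed 0 of the 9 counts and no call of a single gene. The deviations of same-numbered libraries correlated at -0.17 to 0.15 on average per contrast, and in none were all 4 pairs over 0.1, so the numbers were not taken to pair the animals. 

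Among the 8 tested genes, reversed directions were all in genes not called in either setting. After rescaling they were Gpnmb (-0.0081) and Lgals3 (-0.28) in UUO7 against UUO2, Lgals3 (0.078) in R2W against UUO7 and Csf1r (0.017) in R4W against R1W. A pseudocount of 10 gave -0.072 for Lgals3 relative to Adgre1. With R4W replicate 2 placed in R2W, Csf1r was at -0.071 and Trem2 at -0.028 in R4W against UUO7, and Csf1 at -0.042 and Lyz2 at -0.12 in R4W against R1W. Without the libraries with adipose RNA, Trem2 was at -0.12 in R4W against UUO7 and at -0.058 in R4W against R1W, and Lyz2 at -0.043 in the latter. Across fits without 1 replicate, the log2 differences ranged as follows. Lgals3 ranged from -0.13 to 0.16 in UUO7 against UUO2. In R1W against UUO7 Adgre1 ranged from -0.0021 to 0.15, Mrc1 from -0.13 to 0.33 and Trem2 from -0.19 to 0.092. In R2W against UUO7 Csf1 ranged from -0.34 to 0.034, Trem2 from -0.064 to 0.43 and Lgals3 from -0.17 to 0.098. In R4W against UUO7 Csf1r ranged from -0.071 to 0.11 and Trem2 from -0.054 to 0.32. In R4W against R1W Csf1r ranged from -0.15 to 0.032, Csf1 from -0.042 to 0.23, Lyz2 from -0.12 to 0.21 and Trem2 from -0.013 to 0.38. Relative to Adgre1, Csf1 ranged from -0.071 to 0.12 and Lgals3 from -0.063 to 0.083.

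Depth was known for 9 libraries only, which limits what can be said of genes under 1 FPKM, Gpnmb before recovery among them.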
